A study of Mus musculus with 32 samples.

Results

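Copies of 2 genes, Tmem181 and Dynlt1, lie side by side on proximal mouse chromosome 17, between 6257053 and 6860656 on mm9, a stretch of 603604 bases. The members described here were the deposited gene records named Tmem181a or Tmem181b-ps, or with a name starting with Dynlt1. This rule found 8 records, 4 with a single symbol (Tmem181a, Tmem181b-ps, Dynlt1a and Dynlt1b) and 4 in which the authors' tables merge several Dynlt1 symbols, among 21209 genes with a symbol present in every library. All 8 were present in 32 of 32 libraries, and all 8 passed the filter of a mean of at least 1 FPKM. FPKM is a fragment number per length of transcript and per mapped fragments of the library, so that levels of different genes can be set side by side. The members were selected on their difference between genotypes in these same 32 libraries, measured as FPKM, so their genotype values are given as a description, with no test, and nothing is supported with them.

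Total RNA, freed of ribosomal RNA, was sequenced from gut tissue of percc1-/- and wild-type mice. In the percc1-/- allele 1512 bp of chromosome 17, stated as 25175032 to 25176543 on mm9, had been exchanged for a loxP site in W4/129S6 embryonic stem cells, which were placed in C57BL/6J blastocysts. The line was bred between siblings, and the labels give both genotypes a background of Mixed 129SvEv and C57BL/6. The 32 libraries formed 16 pairs, each with a percc1-/- and a wild-type library matched for region and stage. Small intestine gave 7 pairs (top part at P1, P5 and P15, bottom part at P1, P5, P10 and P20). Stomach gave 5 (whole organ at P1 and P5, bottom part at P10, P15 and P20). Large bowel gave 3, of which the P1 pair held colon with rectum and the P5 pairs held colon or rectum alone, and a single pair was whole gut of E14.5. Each combination of region, stage and genotype is thus 1 library, and the labels do not say whether libraries come from separate animals, so p-values measure the spread between these libraries, which may be technical.

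Dynlt1, once called Tctex1 after the t complex of chromosome 17, is a light chain of cytoplasmic dynein, the motor that carries cargo towards the minus ends of microtubules. It sits on the motor's intermediate chain and can also bind cargo or act apart from the motor. Tmem181 is a membrane protein with several membrane-spanning segments, of the family that shares an extracellular GOLD domain with Tmem87a, Gpr107 and Wls. The suffix -ps marks a copy that was named as a pseudogene.

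Checks of the whole series stand in this paragraph. Records without a symbol between Clcn7 and BC003965, a window of chromosome 17 from 25299129 to 25321476 chosen with its values known, were found in the wild-type stomach in 5 of 5 libraries (5.16 to 13.9 FPKM when summed). They were found in 0 of 5 percc1-/- stomach libraries, and outside the stomach in 1 wild-type large bowel library. This window does not hold the stated positions of the deletion, which lie within the Ift140 record in all 32 libraries, so whether those positions are mm9 could not be settled from the tables. Records with a symbol held 16.8% to 60.2% of the FPKM sum of a library. Summed stomach markers lay between 131 and 1002 FPKM in the 10 stomach libraries and between 5.16 and 271 in small intestine. Summed small intestinal markers lay between 257 and 455 FPKM in small intestine and between 60.2 and 136 in stomach. Large bowel markers summed to 50.1 to 153 FPKM in large bowel and to 3.01 to 44.3 in small intestine. In 10 of 16 pairs at least 1 list of markers of another organ differed by more than 1 log2 unit between the genotypes: small intestine at P1 and P5 (both parts), stomach at P1, P5 and P15, colon and rectum at P5, and the whole gut. Some lists gave no median difference and could not count, so the 10 pairs are a minimum. Among them was exocrine pancreas in the bottom stomach of P10, at 453 FPKM in percc1-/- and 173 in wild type. That pair was kept wherever the 10 pairs were left out. Read numbers are not part of the tables, and the deposited FPKM bounds were the only guide to the precision of a value. In bulk tissue, fewer cells of a type and less RNA per cell cannot be told apart.

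The copies were first compared by sequence, because reads from identical copies cannot be assigned to 1 of them. In the NCBIM37 (mm9) genome with the GENCODE M1 annotation, the order along the chromosome is Tmem181a (transcript chr17:6270475-6305783, plus strand, 17 exons), Dynlt1a (chr17:6310547-6317474, minus strand, 5 exons), Dynlt1b (chr17:6429221-6435441, plus strand, 5 exons) and Tmem181b-ps (chr17:6439626-6466357, minus strand, 18 exons). After these come 4 merged Dynlt1 records, called records I to IV here. Record I spans chr17:6600796-6610127, record II chr17:6648833-6655064, record III chr17:6806388-6812617 and record IV chr17:6851324-6860656. Record I is named Dynlt1c,Dynlt1e,Dynlt1f or Dynlt1c,Dynlt1f in the tables, records II and III Dynlt1c,Dynlt1e, and record IV Dynlt1c,Dynlt1e,Dynlt1f. In GENCODE M1 record I overlaps Dynlt1f, record II Dynlt1c and record IV Dynlt1e, while no Dynlt1 gene of that annotation overlaps record III. Between them, at chr17:6635808-6646630 and chr17:6814821-6825643, lie 2 records named Tmem181c-ps,Tmem181d-ps, which fall outside the rule and are given only beside the members.

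The coding sequence of Dynlt1 is 342 bases long in the 5 annotated copies. Those of Dynlt1c, Dynlt1e and Dynlt1f are identical to that of Dynlt1a, and Dynlt1b differs from it by 1 substitution, C21A, counted from the A of the start codon. Its first 300 bases are shown once, followed by the first 60 bases of Dynlt1b, because this shared sequence is what makes the copies hard to count apart. The capital marks the base that differs.
Dynlt1a, Dynlt1c, Dynlt1e and Dynlt1f: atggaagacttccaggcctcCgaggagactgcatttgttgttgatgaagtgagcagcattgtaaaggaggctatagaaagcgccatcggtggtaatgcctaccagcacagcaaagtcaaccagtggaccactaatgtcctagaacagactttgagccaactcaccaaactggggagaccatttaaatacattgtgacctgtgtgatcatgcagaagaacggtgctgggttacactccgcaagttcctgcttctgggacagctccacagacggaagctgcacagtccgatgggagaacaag
Dynlt1b: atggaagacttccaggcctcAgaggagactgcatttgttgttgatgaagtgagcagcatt

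Tmem181b-ps keeps a reading frame of the length of Tmem181a, 1425 bases, and the 2 differ at 13 positions (99.1% identity), spread from G4T to G1378A. Of these, 7 fall in the first 120 bases, which are shown for both copies with the differing bases in capitals (G4T, A6C, C7A, C8G, T30C, T84C and C108T, from Tmem181a to Tmem181b-ps).
Tmem181a: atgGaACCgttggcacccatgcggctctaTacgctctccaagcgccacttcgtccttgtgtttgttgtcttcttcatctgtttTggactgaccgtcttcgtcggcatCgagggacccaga
Tmem181b-ps: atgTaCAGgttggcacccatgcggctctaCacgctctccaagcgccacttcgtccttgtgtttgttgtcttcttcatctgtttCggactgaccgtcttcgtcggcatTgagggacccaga

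The later part of the cluster is an inverted repeat. The stretch from the start of record I to the end of record II (54269 bases) and the stretch from the start of record III to the end of record IV (54269 bases), read on the opposite strand, differ by an edit distance of 11 bases, or 99.98% identity, with 151323 bases between them. Records I and IV are mirror copies that differ by 6 edits, records II and III by 5, and the 2 Tmem181c-ps,Tmem181d-ps records by 0 over 10823 bases. Each stretch of 50 bases inside an exon was then looked up in the window from 6200000 to 6900000. A second copy was found for 74.7% of such stretches of Tmem181a, 75.2% of Tmem181b-ps, 79.8% of Dynlt1a, 79.4% of Dynlt1b, and for every such stretch of Dynlt1c, Dynlt1e and Dynlt1f. By such stretches, Tmem181a, Tmem181b-ps, Dynlt1a and Dynlt1b can be told apart only through the remaining part of their exons. Stretches that cross exon borders or are longer than 50 bases were not looked up. The values of the 4 merged records are best read together. The sources used here do not say how reads with several matches were shared out.

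The 200 bases before the annotated starts were compared in the same way. Those of Dynlt1b, Dynlt1c, Dynlt1e and Dynlt1f differ from each other by an edit distance of 0 to 4, and that of Dynlt1a from them by 70 to 72 (138 to 140 positions when compared without gaps). The windows follow the annotated starts, and the transcript of Dynlt1a is annotated at 742 bases against 807 for Dynlt1b, Dynlt1e and Dynlt1f, so the windows need not begin at matching places. The window of Tmem181a holds 68.0% G and C with 21 CG pairs, and that of Tmem181b-ps 54.0% with 0. No binding, peak or methylation data were at hand to set beside these windows.

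Tmem181a, the annotated full-length gene, had the highest median level of the 8 members in each genotype, 20.4 FPKM in percc1-/- and 13.3 in wild type, and was higher in percc1-/- in 15 of 16 pairs. In wild-type small intestine it lay between 11.4 and 19.9 FPKM (median 15.5, n = 7), and in percc1-/- small intestine between 19.3 and 32.2 (median 25.3, n = 7). The groups overlapped through a single wild-type library, the bottom part of P5, which lay above the percc1-/- libraries of the bottom part at P20 and the top part at P15. In stomach the percc1-/- values were 14.3 (P1), 17.02 (P5), 17.02 (P10), 30.6 (P15) and 24.8 FPKM (P20), against 9.10, 10.8, 13.4, 14.9 and 13.9 in wild type at the same stages. The stomach groups overlapped only in that the percc1-/- library of P1 lay below the wild-type library of P15. In the P15 pair, records with a symbol held 60.2% of the FPKM sum in percc1-/- and 33.3% in wild type. After rescaling, that pair differed by 0.654 log2. In large bowel the percc1-/- values were 21.2 (colon with rectum, P1), 18.8 (colon, P5) and 13.9 FPKM (rectum, P5), against 7.71, 19.2 and 11.1 in wild type. The colon pair of P5 was the exception to the direction, with a ratio of 0.981, and its percc1-/- library held stomach markers at 99.4 FPKM against 10.51 in wild type, whose part in this was not tested, while the pair of colon with rectum at P1 had the highest ratio of all, 2.75. The whole gut of E14.5 gave the lowest level of each genotype, 9.62 FPKM in percc1-/- and 6.599 in wild type. The median ratio of percc1-/- to wild type over the 16 pairs was 1.55, and the mean difference was 0.64 ± 0.08 on the log2(rescaled FPKM + 1) scale (SE, 16 pairs).

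Tmem181b-ps, the copy named as a pseudogene, was higher in percc1-/- in 16 of 16 pairs, with ratios of 1.22 to 2.41 (median 1.59) and a mean difference of 0.60 ± 0.06 log2 (SE). In small intestine it lay between 15.1 and 25.1 FPKM in percc1-/- (median 17.8, n = 7) and between 9.38 and 14.9 in wild type (median 11.6, n = 7), with no overlap. In stomach it was 12.8, 15.9, 20.1, 24.3 and 26.0 FPKM in percc1-/- at P1, P5, P10, P15 and P20, against 8.34, 10.001, 14.49, 15.3 and 14.99 in wild type. The levels of the bottom stomach at P10 to P20 were above those of the whole stomach at P1 and P5 in each genotype. These are different parts of the organ as well as different ages, and the values were not rescaled. Records with a symbol held 18.4% (P1) to 60.2% (P15) of the FPKM sum in percc1-/- stomach, and 23.4% (P1) to 38.1% (P20) in wild type. The part of this in the levels was not tested. After rescaling, the stomach pair of P15 differed by 0.312 log2. In large bowel the groups did not overlap, with 12.8, 14.3 and 17.7 FPKM in percc1-/- (colon with rectum, colon, rectum) against 8.26, 11.8 and 10.8 in wild type. The whole gut gave 12.7 FPKM against 7.67. Among genes that averaged 1 FPKM or more in the region, every percc1-/- library lay above every wild-type library for 0.055% of genes in small intestine, 0.142% in stomach and 5.67% in large bowel. These shares are background to the rule's own contrast, and nothing is read from them.

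The deposited bounds of the 2 Tmem181 genes were narrow at the median. Their half-width had a median of 11.5% of the value for Tmem181a and 7.8% for Tmem181b-ps over the 32 libraries. It reached 19.2% and 25.0%. The span of the records varied between libraries, with 4 starts and 7 ends for Tmem181a and 6 starts and 25 ends for Tmem181b-ps. Each Dynlt1 member had 1 start and 1 end. FPKM is per length, so Tmem181 values may rest on different spans, whose part in the pair ratios was not tested. The percc1-/- lower bound lay above the wild-type upper bound in 15 of 16 pairs for Tmem181a and in 16 of 16 for Tmem181b-ps. The members were picked for this contrast and the share over all genes was not counted, so nothing is read from these counts. These bounds describe 1 library each and do not hold the spread between animals. The level of Tmem181b-ps relative to Tmem181a was 0.471 to 1.16 in small intestine, 0.797 to 1.18 in stomach, 0.603 to 1.27 in large bowel and 1.16 and 1.32 in the wild-type and percc1-/- whole gut. The sum of both genes was higher in percc1-/- in 16 of 16 pairs, with 22.3 to 54.9 FPKM (median 37.0) against a wild-type median of 26.1.

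Dynlt1a, whose coding sequence equals that of the merged copies, was higher in percc1-/- in 16 of 16 pairs, by 0.43 ± 0.07 log2 (SE). In small intestine it lay between 8.47 and 11.0 FPKM in percc1-/- (median 10.1, n = 7) and between 5.45 and 8.67 in wild type (median 7.18, n = 7). The groups overlapped through the wild-type bottom part of P5 alone. In stomach it was 10.04, 6.26, 7.70, 9.35 and 7.67 FPKM in percc1-/- at P1, P5, P10, P15 and P20, against 4.82, 6.22, 6.53, 6.61 and 5.24 in wild type. The pair of P5 was nearly even, at a ratio of 1.01, and the pair of P1 had the highest ratio of any Dynlt1a pair, 2.08. In that P1 pair stomach markers were at 131 FPKM in percc1-/- and 351 in wild type, and pancreas markers at 17.35 and 129.3. The part of these markers was not tested. After rescaling, the stomach pairs of P5 and P15 differed by 0.179 and 0.138 log2. In large bowel it was 9.78, 11.6 and 8.09 FPKM in percc1-/- (colon with rectum, colon, rectum) against 5.75, 7.30 and 7.88, with no overlap. The whole gut of E14.5 gave its highest level in percc1-/-, 13.7 FPKM, against 7.66 in wild type, at the stage where Tmem181a was lowest. That percc1-/- library held lung markers at 40.55 FPKM and heart markers at 120.5, against 1.39 and 22.6 in wild type. The part of these markers in the level was not tested. Bounds were wider than for Tmem181, with a median half-width of 22.2%. They lay apart in 4 of 16 pairs, again without a share over all genes to set beside this.

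Dynlt1b, the copy with the single coding difference, could not be read in 3 libraries. Its record was listed at 0, with bounds of 0, in the percc1-/- libraries of top intestine at P1, bottom intestine at P10 and bottom stomach at P20, and in no wild-type library. Records without a symbol that overlap its locus had 6.36, 2.74 and 5.64 FPKM in those 3 libraries, within the 0.0 to 8.31 FPKM of the other 13 percc1-/- libraries, so these values do not set the 3 apart. In wild type such records had 0.0 to 3.66 FPKM. Listing at 0 was not limited to this gene: of 4643 genes whose mean was 10 FPKM or more, 51 had a value of 0 in 1 library or more. In the other 13 percc1-/- libraries Dynlt1b lay between 11.1 and 21.9 FPKM (median 13.8), against 6.30 to 12.2 (median 7.94) in the 16 wild-type ones. It was higher in percc1-/- in 13 of these 13 pairs, with ratios of 1.14 to 2.81 (median 1.72). Over all 16 pairs its bounds lay apart with percc1-/- higher in 10 and lower in 3, also without a share over all genes. The values of 0 decide its mean difference, which was -0.02 ± 0.35 log2 (SE) with them and 0.69 when those libraries were taken as missing. The highest Dynlt1b level of all, 21.9 FPKM, was in the percc1-/- bottom intestine of P1, and the wild-type colon of P5, at 12.2, stood above all other wild-type libraries.

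The 4 merged Dynlt1 records had median ratios of 1.15 (I), 1.31 (II), 1.32 (III) and 1.21 (IV) over the 16 pairs. Those of the single-symbol members were higher, at 1.40 to 1.65 over the same pairs, with the values of 0 of Dynlt1b kept. Records I and IV, the mirror pair in which the tables also name Dynlt1f, were higher in percc1-/- in 15 and 14 of 16 pairs after rescaling, by 0.25 ± 0.07 and 0.26 ± 0.06 log2 (SE). Record I lay between 7.95 and 12.1 FPKM in percc1-/- (median 9.90) and between 6.61 and 11.0 in wild type (median 7.76). Record IV lay between 8.76 and 12.6 FPKM in percc1-/- (median 11.0) and between 6.61 and 11.6 in wild type (median 8.71). For both, the groups overlapped in small intestine, stomach and large bowel, and the top intestine of P5 was higher in wild type. Stomach and pancreas markers were also higher in the wild-type library of that pair, and their part was not tested.
Records II and III, the other mirror pair, were higher in percc1-/- in 16 and 15 of 16 pairs after rescaling, by 0.39 ± 0.07 log2 (SE) each. Record II lay between 7.32 and 12.3 FPKM in percc1-/- (median 9.29) and between 5.34 and 9.59 in wild type (median 7.01). Record III lay between 7.35 and 12.2 FPKM in percc1-/- (median 9.25) and between 5.37 and 9.62 in wild type (median 7.10). Without rescaling of the libraries, record II was higher in percc1-/- in 13 of 16 pairs and record III in 14. The genotype groups of both records overlapped in small intestine, stomach and large bowel. The whole gut of E14.5 had the highest ratio of both, 11.9 against 5.34 FPKM for record II. Its percc1-/- library also held higher summed lung and heart markers than the wild-type one, whose part in this was not tested.

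Counted over the 13090 genes tested for genotype, 0.0611% were higher in percc1-/- in all 16 pairs, 0.275% in at least 15 and 1.08% in at least 14. In the same fit 0.932% of genes were called, 0.42% as higher. The members were picked for this contrast, so these shares are given as the background and nothing is read from the members' counts. Leaving out the 10 pairs in which markers of another organ differed left the mean difference at 0.78 for Tmem181a, 0.58 for Tmem181b-ps, 0.40 for Dynlt1a and 0.24 to 0.37 for records I to IV, with Dynlt1b and its values of 0 at -0.61. Summed over the 6 Dynlt1 members, the level was 40.3 to 75.8 FPKM in percc1-/- (median 61.3) and 38.9 to 59.0 in wild type (median 46.3). The sum was higher in percc1-/- in 15 of 16 pairs, at a median ratio of 1.36, the exception being the top intestine of P5 at 0.988. In that pair stomach markers were at 5.16 FPKM in percc1-/- and 115 in wild type, and pancreas markers at 27.9 and 254. The part of these markers in the exception was not tested. The bottom stomach of P20, where Dynlt1b is listed at 0, had a ratio of 1.02.

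**Figure D1:**
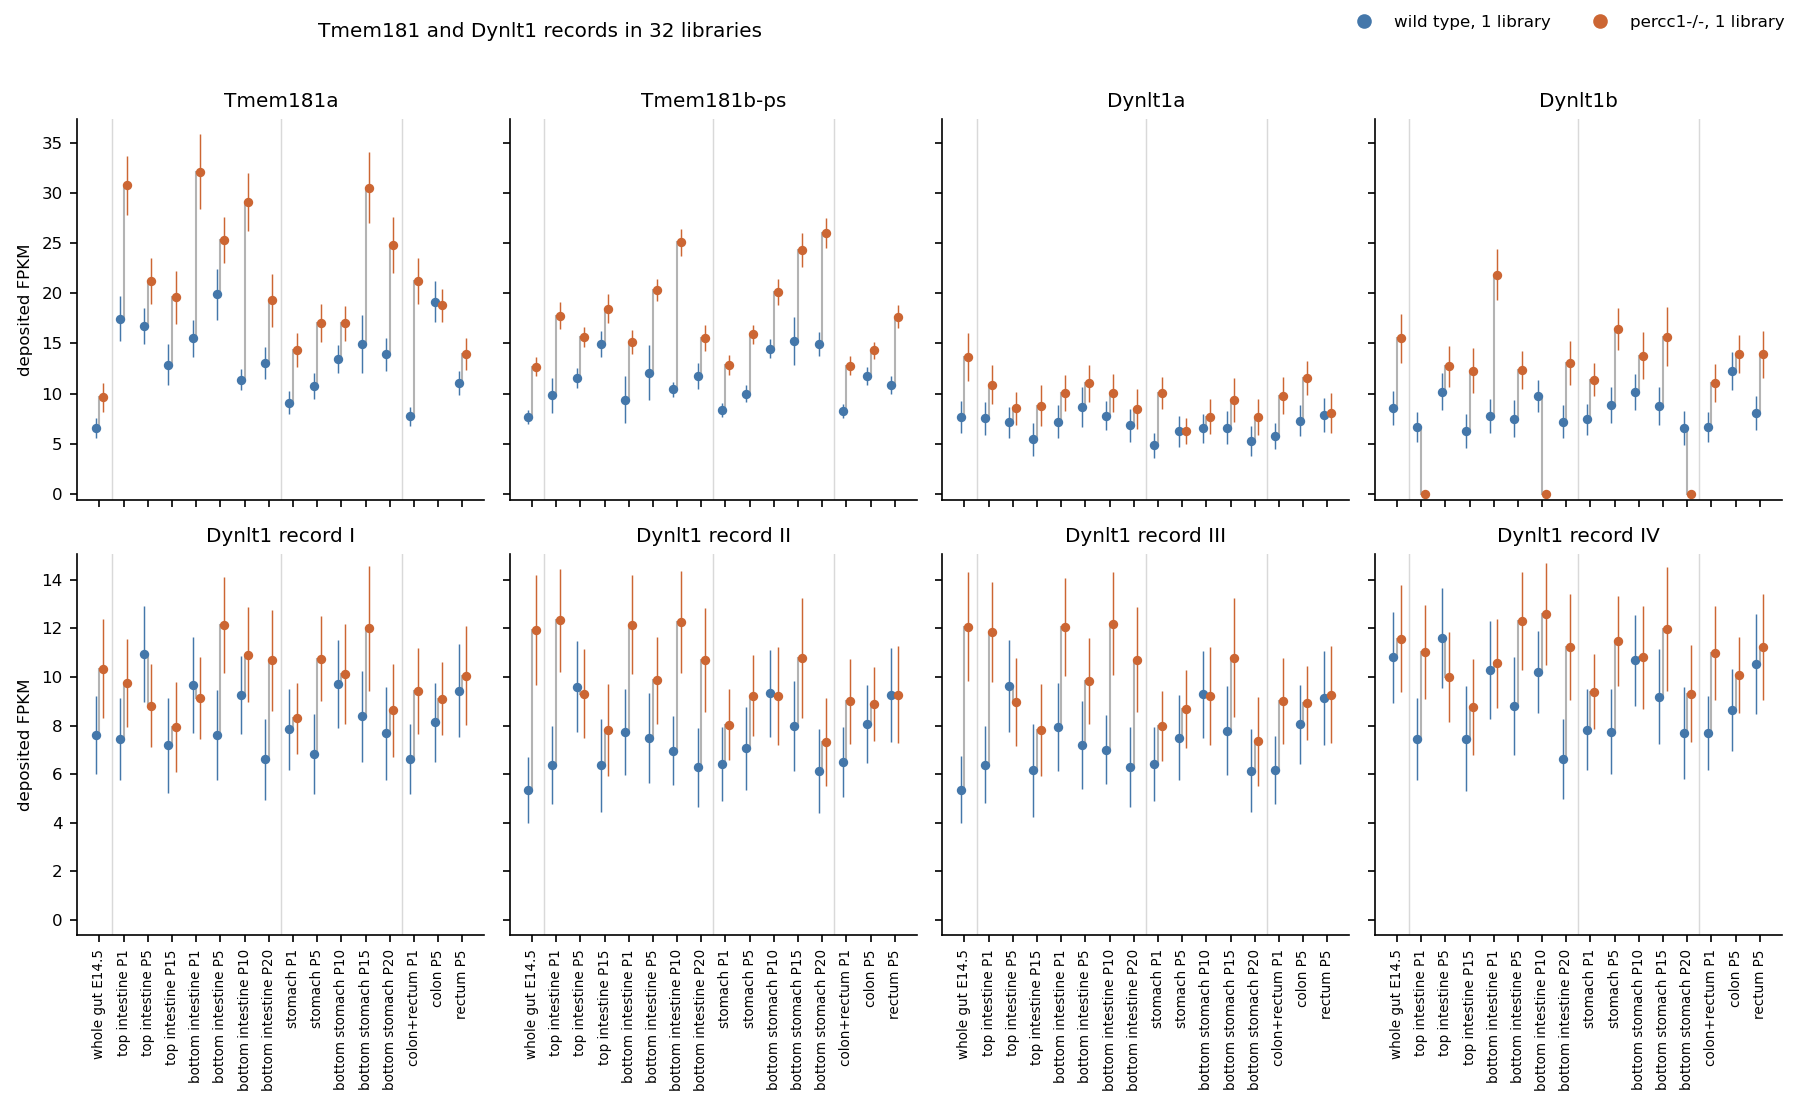
Deposited FPKM (y axis) of the 8 members in each of the 32 libraries, arranged by region and stage (x axis); points are single libraries, vertical bars the deposited lower and upper bounds, grey lines join the 2 libraries of a pair, and the y scale differs between the rows. Tmem181b-ps and Dynlt1a were higher in percc1-/- in 16 of 16 pairs, and Dynlt1b was listed at 0 in 3 percc1-/- libraries.

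The 2 Tmem181c-ps,Tmem181d-ps records, outside the rule, had nearly the same values as each other. The first lay between 3.501 and 15.3 FPKM in percc1-/- (median 6.46) and between 2.19 and 8.91 in wild type (median 5.57), and was higher in percc1-/- in 15 of 16 pairs after rescaling, by 0.43 ± 0.08 log2 (SE). Records without any symbol inside the cluster summed to 13.9 to 43.1 FPKM in percc1-/- (median 28.1) and to 4.82 to 31.1 in wild type (median 12.2). Their sum was higher in percc1-/- in 14 of 16 pairs, and lower in the colon of P5 (13.9 against 21.2) and the bottom stomach of P15 (30.95 against 31.06). With those that overlap a member's locus added to that member, every mean genotype difference was above 0. That of Dynlt1b turned from -0.02 to 0.53 by this.

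The genes next to the cluster were not members and were tested. Within 1000000 bases of its ends lie 21 genes with a symbol, 10 before and 11 after, of which 15 were tested for genotype over all pairs. None of the 15 passed as higher (limma, Benjamini-Hochberg adjusted p), where 0.42% of all genes did, and 7 of 15 had a positive difference. An unadjusted p under 0.05 was reached by 5 of 15, of which 4 were lower in percc1-/-. The positive one was 5730437N04Rik (0.13 ± 0.03, limma adjusted p = 0.0774, higher in 15 of 16 pairs). Of the negative ones, Rsph3b (-0.22 ± 0.06, adjusted p = 0.103, higher in 4 of 16) and Snx9 (-0.13 ± 0.06, adjusted p = 0.328, 4 of 16) did not pass either (limma). At the ends of the cluster, Tulp4, a tubby-like protein gene, differed by 0.29 ± 0.15 log2 (SE, limma adjusted p = 0.413, higher in 10 of 16 pairs), and Sytl3, a synaptotagmin-like gene, by 0.28 ± 0.35 (adjusted p = 0.793, 9 of 16). Ezr, the gene of ezrin of the brush border, differed by -0.02 ± 0.06 (adjusted p = 0.916).
Among these 15, 2 passed as lower in percc1-/-, where 0.512% of all genes tested did. Tagap1, which lies after the cluster, was 1.58 to 3.83 FPKM in percc1-/- (median 2.58) and 3.15 to 6.03 in wild type (median 4.42). It fell by 0.60 ± 0.05 log2 (SE, limma adjusted p = 2.11e-06) and was higher in percc1-/- in 0 of 16 pairs. The size was the same, -0.59, without the 10 pairs in which markers of another organ differed, but the call ended there (adjusted p = 0.223, 6 pairs). 3300005D01Rik, before the cluster, was 0.0 to 5.603 FPKM in percc1-/- (median 0.381) and 0.2 to 19.4 in wild type (median 1.70), and fell by 1.11 ± 0.24 log2 (SE, limma adjusted p = 0.0347, higher in 1 of 16 pairs). That call ended when any of 8 single pairs was left out (adjusted p up to 0.0698) and without the marker pairs (-0.71, adjusted p = 0.66). The deletion, at its stated positions, begins 18314376 bases beyond the end of the cluster.

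**Figure D2:**
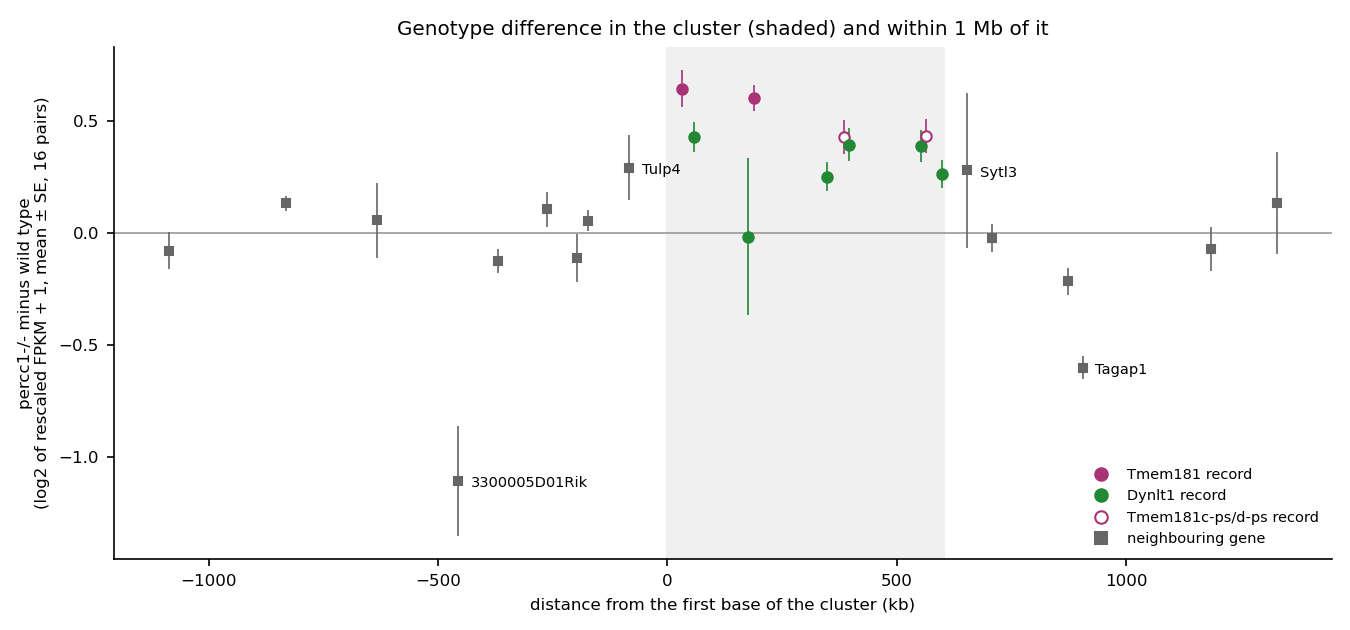
Mean difference between percc1-/- and wild type (y axis, log2 of rescaled FPKM + 1, bars ± SE over 16 pairs) against distance from the first base of the cluster (x axis, kb), for the cluster (shaded; filled circles members, open circles the Tmem181c-ps,Tmem181d-ps records) and for the 15 neighbouring genes tested (squares). Tulp4 and Sytl3 flank the cluster at 0.29 and 0.28 without passing the test, and Tagap1 lies at -0.60.

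The members were chosen for their genotype difference, but in the same 32 libraries and with their levels by region and stage known, so the p-values for region and age, from limma across all genes, are not independent of that choice. Stomach was compared with small intestine over 24 libraries, with stage and genotype as covariates. Of the 8 members, 2 passed, both lower in stomach, in a contrast that called 48.3% of all genes and 22.3% as lower. Tmem181a fell by 0.38 ± 0.11 log2 in stomach (SE, Benjamini-Hochberg adjusted p = 0.00531, 95% interval -0.60 to -0.16), with wild-type medians of 13.4 and 15.5 FPKM. The call ended without the stomach pair of P1 (-0.23, limma adjusted p = 0.0837) and without rescaling (-0.29, adjusted p = 0.0823). It also ended without the pairs in which markers of another organ differed (-0.14, adjusted p = 0.558). Leaving out those pairs removes every stomach and small intestine library of P1 and P5, and the stomach of P15. Only bottom stomach of P10 and P20 is then left, so markers, age and part of the organ cannot be told apart in that fit. At P1 and P5 alone, where whole stomachs were taken, it was -0.72 (limma adjusted p = 0.000477), a setting added after seeing the data. Dynlt1a fell by 0.31 ± 0.08 log2 in stomach (limma adjusted p = 0.00194, interval -0.47 to -0.15), with wild-type medians of 6.22 and 7.18 FPKM. That call ended without the marker pairs (-0.36, adjusted p = 0.0586) and at P1 and P5 alone (-0.33, adjusted p = 0.0518), at much the same size. Tmem181b-ps differed by -0.055 ± 0.08 (limma adjusted p = 0.594, interval -0.22 to 0.11). Its sign turned without rescaling (0.035), with upper quartile rescaling (0.001) and without the marker pairs (0.18), while at P1 and P5 alone it passed as lower (-0.19, adjusted p = 0.0461).

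Records I to IV differed between stomach and small intestine by -0.10, -0.18, -0.17 and -0.12 log2 (limma adjusted p = 0.292, 0.0697, 0.0778 and 0.2). Dynlt1b, with its values of 0, differed by 0.185 ± 0.53 (adjusted p = 0.796, interval -0.91 to 1.28), and by -0.09 with those values taken as missing. The widest regional difference in the cluster belonged to the Tmem181c-ps,Tmem181d-ps records outside the rule. They fell by 0.96 ± 0.12 log2 in stomach each (limma adjusted p = 1.24e-06 and 1.11e-06), from wild-type medians of 7.35 to 3.65 FPKM for the first. Exocrine pancreas markers moved with region too, with summed levels of 17.4 to 453 FPKM in stomach libraries and 9.71 to 254 in small intestine. Of the 13 pancreas markers, 0 to 3 were at 0 per stomach library and 0 to 5 per small intestinal one, and their part in the regional differences was not tested.

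Large bowel was compared with small intestine at P1 and P5, over 6 and 8 libraries. Tmem181a alone of the 8 members passed, lower in large bowel by 0.52 ± 0.18 log2 (SE, limma adjusted p = 0.033, interval -0.91 to -0.14), in a contrast that called 38.1% of all genes and 18.1% as lower. Leaving out any of 5 single pairs ended that call, with limma adjusted p up to 0.271 without colon with rectum at P1 (-0.37). That pair held both the lowest large bowel level, 7.71 FPKM in wild type, and the highest, 21.2 in percc1-/-. The call also ended with upper quartile rescaling (-0.43, adjusted p = 0.0643) and with records without a symbol added (-0.33, adjusted p = 0.241). The other single-symbol members differed by -0.15 (Tmem181b-ps, limma adjusted p = 0.176, interval -0.32 to 0.03), -0.07 (Dynlt1a, adjusted p = 0.606, interval -0.28 to 0.14) and 0.37 (Dynlt1b, adjusted p = 0.627, interval -0.80 to 1.53). Records I to IV lay between -0.09 and -0.04 log2, and none passed. Over all stages taken, the wild-type medians of Tmem181a were 15.5 FPKM in small intestine, 13.4 in stomach and 11.1 in large bowel. The single wild-type whole gut library was at 6.599. Large bowel was taken at P1 and P5 only, while the other 2 regions reach P20. At P1 and P5 wild-type stomach was at 9.10 and 10.8 FPKM, below the large bowel median. Stomach and large bowel were not tested against each other.

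Age was tested within small intestine, P10 to P20 against P1 and P5, over 14 libraries. None of the 8 members passed (limma, smallest adjusted p = 0.0605), where 5.92% of all genes did, and 1 of 8 had an unadjusted p under 0.05. That member was Tmem181a, at -0.37 ± 0.11 log2 (interval -0.60 to -0.14). Tmem181b-ps, its near copy, had a difference of the opposite sign, 0.187 ± 0.105 (limma adjusted p = 0.319, interval -0.04 to 0.41). It passed at 0.40 (adjusted p = 0.0345) when records without a symbol at its locus were added to it. The 6 Dynlt1 members lay between -0.305 and -0.12 log2, with adjusted p of 0.225 to 0.843. Age was not tested in stomach, since whole organs were taken at P1 and P5 and the bottom part later.

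How the genotype difference varied with region and age was set out as differences between the pair differences, with no test for the members, since they were chosen for being higher in percc1-/- in most pairs, which favours an even difference. Between stomach and small intestine it differed by -0.01 ± 0.16 log2 (SE) for Tmem181a, 0.0 ± 0.15 for Tmem181b-ps and 0.05 ± 0.17 for Dynlt1a. Records II and III had the lowest values, -0.23 ± 0.16 and -0.24 ± 0.15, with genotype differences of 0.51 and 0.50 in small intestine and 0.29 and 0.26 in stomach. Between older and younger small intestine it differed by 0.02 ± 0.23 log2 (SE) for Tmem181a, -0.18 ± 0.20 for Tmem181b-ps and -0.11 ± 0.17 for Dynlt1a.

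**Figure D3:**
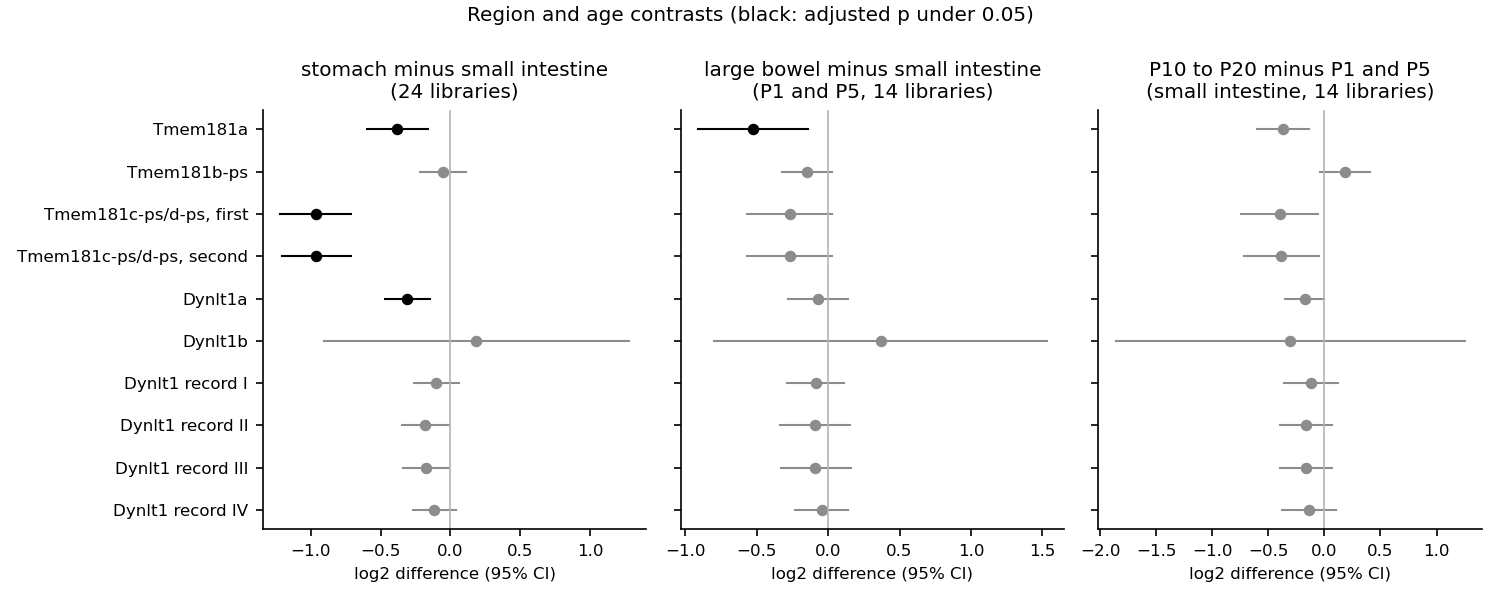
Log2 differences (x axes, log2 of rescaled FPKM + 1) with 95% intervals for the 8 members and the 2 Tmem181c-ps,Tmem181d-ps records in 3 contrasts tested with limma; black marks an adjusted p under 0.05. Tmem181a lay at -0.38 in stomach and at -0.52 in large bowel against small intestine, and the interval of Dynlt1b was the widest in every panel.

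The members were then compared with each other over the 32 libraries, on the log2 scale and as a description. The values share libraries, depth and, between copies, reads. The 2 Tmem181c-ps,Tmem181d-ps records correlated at r = 1.0, records II and III at 0.995 and records I and IV at 0.923, which are the mirror pairs of the inverted repeat. After each genotype's mean was subtracted, Tmem181a and Tmem181b-ps had r = 0.487, Dynlt1a and record III 0.502, and Tmem181a and Dynlt1a, neighbours on the chromosome, 0.112. Tmem181a had its highest value with the Tmem181c-ps,Tmem181d-ps records (0.743 and 0.745), and Tmem181b-ps had a negative one with Dynlt1a (-0.345). Values with Dynlt1b, from -0.438 to 0.233, include its 3 libraries listed at 0.

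**Figure D4:**
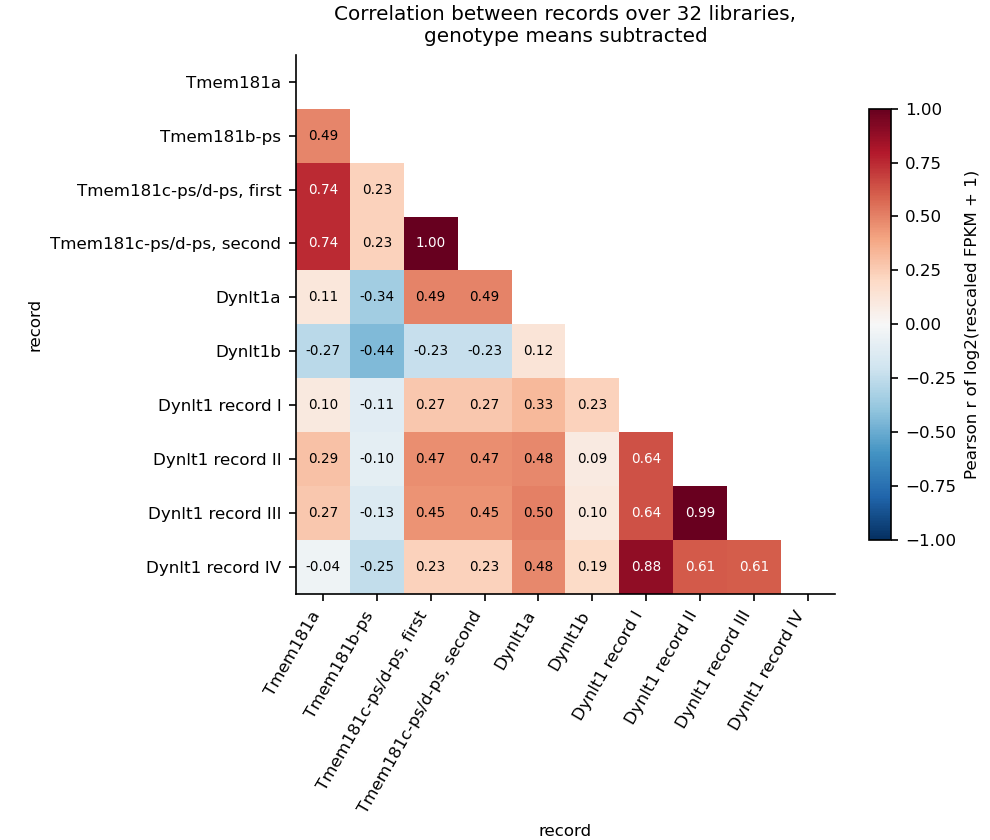
Pearson r between records (both axes) over 32 libraries on the log2(rescaled FPKM + 1) scale, after subtraction of each genotype's mean; red is positive, blue negative. The mirror copies stand out, with 0.99 for records II and III and 0.883 for records I and IV, while Tmem181b-ps and Dynlt1a lie at -0.345.

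Outside the members, the genes most like Tmem181a over the 32 libraries were Tph1, the serotonin-making enzyme of enterochromaffin cells (r = 0.807), Tnk1 (0.729), Zfp36 (0.719), Chgb, a granin of endocrine granules (0.716), and Sgk1 (0.711). With genotype means subtracted they were replaced by Nlrc4 (0.847), Itga3 (0.843), Sult1d1 (0.82), Lgals3bp (0.801) and Akr1c13 (0.799). For Tmem181b-ps they were Glo1, the first enzyme of methylglyoxal detoxification (0.798), Tph1 (0.732), 5730437N04Rik (0.67), Nab1 (0.664) and Chgb (0.66), and with genotype means subtracted all 5 were replaced, by Hgs (0.791), Prrc2a (0.763), Pura (0.762), 2310067B10Rik (0.75) and Adcy6 (0.743). For Dynlt1a the closest was Piga, which starts the synthesis of GPI anchors (0.778, and 0.748 with genotype means subtracted). For records II and III it was Gm3448 (0.666 and 0.654), for record I Lat2 (0.632) and for record IV Spata5 (0.643). With genotype means subtracted the closest became Wdr24 for records II and III (0.702 and 0.744) and Agbl5 for records I and IV (0.668 and 0.744). The closest to Dynlt1b, Rtel1 (0.585), rests in part on the 3 libraries at 0. These genes were taken as the highest of all correlations with the genes tested and are given without a test.

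The other parts of the dynein motor gave the setting for the Dynlt1 copies. Of the dynein 1 subunits listed, 8 of 10 were tested for genotype and none passed in either direction, with a median of 0.007 log2 beside -0.0011 over all genes tested (limma, 0 with an unadjusted p under 0.05). None of 5 dynein 2 subunits, 12 dynactin subunits or 10 regulators passed, with medians of -0.08, 0.004 and 0.01 and with 2, 1 and 1 genes at an unadjusted p under 0.05. None of 6 membrane proteins of the GOLD family passed, with a median of 0.04 and 0 genes at an unadjusted p under 0.05. Dynlt3, the other light chain of the Dynlt1 kind in cytoplasmic dynein 1, had medians of 12.49 FPKM in percc1-/- and 11.6 in wild type, Dync1h1, the motor's heavy chain, 21.98 and 22.2, and Dync1i2, an intermediate chain, 16.96 and 16.5. In wild type the summed Dynlt1 level thus had a median of 46.3 FPKM beside 11.6 for Dynlt3, though a sum over copies that share reads depends on how the reads were shared out.

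Between stomach and small intestine, 6 of 8 dynein 1 subunits passed, 4 higher and 2 lower in stomach, where 48.3% of all genes passed. Dynlt3 rose by 0.38 log2 and Dynll1, a light chain of another family, by 0.33, while its paralog Dynll2 fell by 0.62 (limma adjusted p = 5.6e-06, 0.000102 and 1.35e-05). These 3 calls ended without the pairs in which markers of another organ differed (limma adjusted p = 0.113, 0.312 and 0.306). That fit holds no library of P1 or P5, so markers and age cannot be told apart in it. Of 10 regulators 2 passed as higher and 2 as lower in stomach, the latter being the cargo adaptors Hook1, which fell by 1.19, and Hook2, which fell by 0.70 (limma adjusted p = 4e-09 and 2.29e-08). Of 6 GOLD-family genes 1 passed as higher, Wls, the carrier of Wnt proteins (0.77, limma adjusted p = 1.64e-08), and 2 as lower, Tmem87b (-0.90, adjusted p = 1.61e-06) and Gpr107 (-0.44, adjusted p = 0.00342). The call of Gpr107 ended without the stomach pair of P5 (-0.295, adjusted p = 0.0537) and without the marker pairs (-0.12, adjusted p = 0.696). In large bowel at P1 and P5, 2 dynein 1 subunits passed as higher and 3 as lower, among them Dynll2, which fell by 0.77 (limma adjusted p = 0.000228). Between older and younger small intestine none of the tested genes of these 5 lists passed (limma), with 0 to 2 genes at an unadjusted p under 0.05 per list.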

How the data were processed

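The deposited tables give FPKM per gene and library, which the authors made with TopHat2 2.0.13, SAMtools 0.1.18 and Cufflinks 2.2.1 on mm9, per the submitters' processing notes, from stranded total RNA libraries, per the labels' protocols. Values were summed per symbol, except for the merged Dynlt1 and Tmem181 records, which were kept by position. Records with a failed status were left out. Libraries were rescaled by the median ratio over 10029 genes above 1 FPKM in every library, and log2(rescaled FPKM + 1) was fitted with limma 3.58.1 (R 4.3.3, trended robust prior, mean of at least 1 FPKM) with Benjamini-Hochberg adjustment over all genes tested and a threshold of 0.05. Fold changes on this scale understate those of low genes. The pair was a block for genotype, since the design matches its libraries by region and stage. Fits were tested on simulated data with log2 differences of 1. Of the changed genes, 99.5% were recovered for genotype over all pairs and 93.5% to 98% for the region and age contrasts. For the genotype effect, 78% were recovered for stomach minus small intestine and 43% for older minus younger small intestine. For genotype within a region it was 94.5% in small intestine, 80% in stomach and 34% in large bowel. Sequences came from the mm9 genome and GENCODE M1 and were compared with Python 3.11.15 and edlib 1.3.9.post1.
Named genes were the members, genes within 1 Mb of the cluster, the 5 genes most correlated with each member, and up to 4 called genes per list. The members and lists were chosen with earlier results of these data known. Alternatives covered the pseudocount, rescaling, filter, prior, block, failed records, records without a symbol and omitted pairs. Leaving out the values of 0 of Dynlt1b and using P1 and P5 alone were chosen after seeing the data.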

Additional observations from a re-analysis of the deposited data

How the results depend on the processing

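The mean genotype difference kept its sign in all alternatives for 7 of the 8 members. For Dynlt1b, at -0.02, it was 0.528 with records without a symbol added, 0.689 with its values of 0 taken as missing, and -0.123 to 0.215 when single pairs were left out. The number of genes called for genotype, 122, was 24 with no replicate block, 1 without the 10 pairs in which markers of another organ differed, 73 (without top intestine P1) to 157 when single postnatal pairs were left out, and 199 without the whole gut. Fits without pairs hold fewer libraries, and the fit without the marker pairs holds no stomach or small intestine of P1 or P5. Otherwise the cause of these and the following changes was not tested. For the genotype effect of stomach minus small intestine, 2 genes of the whole table were called, against 4 with no filter on low values and 0 without the marker pairs. For older minus younger small intestine, 0 genes were called, against 1 with a pseudocount of 0.1, 1 with no replicate block and 0 to 3 without single pairs. Between stomach and small intestine 2 members were called, against 1 without rescaling, 0 without the marker pairs and 1 (without stomach P1) to 4 (without bottom stomach P15) without single pairs, and the genes called overall were 3334, not 6306, without the marker pairs. There Dynlt1b (0.185) was -0.13 without the marker pairs, -0.093 with its values of 0 missing and -0.165 to 0.669 without single pairs. Tmem181b-ps (-0.055) was 0.035 without rescaling, 0.001 with upper quartile rescaling and 0.18 without the marker pairs. Between large bowel and small intestine 1 member was called, against 0 with upper quartile rescaling, 0 with records without a symbol added and 0 to 1 without single pairs, and 4944 genes overall became 2692 (without colon with rectum P1) to 4857 without single pairs. Upper quartile rescaling gave 0.016 for Dynlt1a and 0.044 for record IV, and missing values of 0 gave -0.025 for Dynlt1b. Without single pairs this contrast was -0.164 to 0.0 for Dynlt1a, -0.066 to 0.742 for Dynlt1b, -0.157 to 0.0 for record II and -0.161 to 0.022 for record III. For age in small intestine 0 members were called, against 1 with records without a symbol added, and Dynlt1b (-0.305) was -1.05 to 0.308 without single pairs. The 757 genes called overall were 479 with the replicate block and 82 (without top intestine P15) to 849 without single pairs. Without rescaling, the median of all genes went from 0.0175 to 0.1005 log2 in stomach against small intestine. For the genotype effect of older minus younger small intestine it went from -0.008 to 0.1367 without rescaling. In large bowel against small intestine it went from 0.026 to 0.1087 with upper quartile rescaling. The marker-pair alternative could not be fitted for age, for its interaction with genotype or for large bowel, because it leaves no young small intestine. FPKM without counts give no depth, and none of the alternatives changes how reads shared by copies were assigned.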
